A study of Mus musculus with 8 samples.

Results

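The HOX genes encode homeodomain transcription factors that lie side by side in 4 chromosomal clusters, named A to D, and are numbered by their order along them. The 38 described here are the genes of the deposited table whose symbol is HOXA, HOXB, HOXC or HOXD followed only by a number, out of 16119 genes in all. They comprise 11 genes of cluster A, 10 of cluster B, 9 of cluster C and 8 of cluster D. Hoxd4 was not analysed here. The samples were mouse thyroid follicular cell organoids (TFCOs), whole thyroid tissue and whole lung tissue, all wild type, of the C57BL/6 strain and without treatment. RNA of the TFCO lines mThy14 and mThy16 was sequenced at early and at late passage, with 1 library per line and passage, and thyroid and lung tissue had 2 libraries each. The organoids were grown in basement membrane extract with R-spondin 3, the TGF-β receptor inhibitor A83-01, forskolin, EGF and FGF10, and so lack the stroma, vessels and blood cells of whole tissue. The labels do not say from how many animals the tissue libraries came, and the p-values measure only the spread between these libraries.

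Along an embryo, HOX genes with low numbers become active in the head and neck end of the trunk, and genes with high numbers become active progressively nearer the tail, in the order in which they lie on the chromosome. Many adult cells keep a HOX pattern that reflects where they arose, and this pattern is called the positional code. The thyroid forms from the floor of the pharynx and the lung buds from the foregut just behind it, so both lie in the domain of the low-numbered genes. HOX proteins bind DNA with TALE cofactors of the PBX and MEIS families, while Polycomb proteins keep the unused stretches of each cluster silent.

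In the mouse genome build GRCm38 (GENCODE annotation M21), the listed genes of cluster A lie on chromosome 6 on the minus strand. Cluster B spans chr11:96194316-96368256, cluster C chr15:102921103-103036852 and cluster D chr2:74668310-74765142, all on the plus strand. Every member is annotated as protein coding. Among the members, exons overlap on the same strand only for Hoxc5 and Hoxc10, which share 166 bases. Antisense transcripts such as Hotairm1, Hoxb3os and Haglr lie between the members. The labels and the published methods describe different library kits, so it is not settled whether reads from opposite strands were kept apart.

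The promoters of 3 members that mark different ends of the pattern are shown: Hoxb8, which was higher in TFCOs than in lung, Hoxd13, the last gene of cluster D, and Hoxa5, which was highest in lung. Each sequence is the stretch of 250 bases before the RefSeq transcript start in GRCm38.p6, read 5′ to 3′ on the strand of the gene, at chr11:96281655-96281904 (plus), chr2:74667975-74668224 (plus) and chr6:52204588-52204837 (minus). Capitals mark matches on both strands to TGATNNAT, the form bound by HOX with PBX, to TTTATG, a form bound by CDX proteins, and to TATAAA, the TATA box.
Hoxb8: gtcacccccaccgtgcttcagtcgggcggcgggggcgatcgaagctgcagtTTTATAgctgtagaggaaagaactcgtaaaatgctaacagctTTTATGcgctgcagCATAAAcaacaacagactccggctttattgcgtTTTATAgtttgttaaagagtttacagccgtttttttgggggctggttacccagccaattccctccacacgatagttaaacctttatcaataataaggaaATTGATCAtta
Hoxd13: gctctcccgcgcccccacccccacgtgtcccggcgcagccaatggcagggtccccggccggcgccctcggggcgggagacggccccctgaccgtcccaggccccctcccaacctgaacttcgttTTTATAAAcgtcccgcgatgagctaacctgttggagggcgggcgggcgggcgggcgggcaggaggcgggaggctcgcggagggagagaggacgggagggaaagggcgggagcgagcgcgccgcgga
Hoxa5: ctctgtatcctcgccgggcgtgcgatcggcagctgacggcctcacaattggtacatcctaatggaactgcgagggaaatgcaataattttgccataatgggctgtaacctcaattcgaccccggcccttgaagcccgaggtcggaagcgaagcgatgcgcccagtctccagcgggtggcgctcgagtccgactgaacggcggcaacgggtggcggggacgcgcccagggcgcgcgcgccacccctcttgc
The Hoxb8 promoter held 1 match to TGATNNAT, 2 to TTTATG and 2 to TATAAA, none of which overlapped, the Hoxd13 promoter held 2 matches to TATAAA that overlapped each other on opposite strands, and the Hoxa5 promoter held none of the 3 motifs. Sequences were found for 21 members in 23 entries, of which 4 held TGATNNAT, 4 held TTTATG and 3 held TATAAA. Of all 32851 mouse promoters of that length, 7.68% held TGATNNAT, 10.8% held TTTATG and 12.4% held TATAAA. The member promoters held 2 to 35 CG dinucleotides with a median of 13, against a median of 6 over all promoters. These matches describe letters in a window and say nothing about binding.

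Each library held between 9755081 and 16904865 reads on genes, and 14703 genes with at least 10 normalized counts in 2 or more libraries were tested. Of the 38 members, 33 passed this filter. Hoxb1, Hoxc5, Hoxc9, Hoxc10 and Hoxc11 did not. The libraries were also grouped into a pair of sets that cut across the thyroid tissue. The 4 TFCO libraries and thyroid tissue 1 listed 44 genes (0.273% of all genes) at 50 or more that thyroid tissue 2 and both lung libraries listed at 0. The reverse was shown by 16 genes (0.0993%). No other split of the libraries was counted, so these numbers do not show that this split is stronger than another. The cause was not tested, and what separates the sets cannot be told apart from what separates TFCOs from lung. Results are therefore given with thyroid tissue 1 and thyroid tissue 2 apart. Follicular cell markers (Tg, Pax8, Slc5a5, Iyd and Duox2) summed to 16482 to 138944 normalized counts in TFCOs, 1544874 and 2197603 in thyroid tissue and 163 and 342 in lung, with Pax8 at 0 in both lung libraries. The 6 fibroblast markers summed to 91.6 to 247 in TFCOs, with Lum at 0 in all 4 libraries, and to 22583 to 38732 in the tissues. The 5 leukocyte markers summed to 47.8 to 70.3 in TFCOs and to 1047 to 7403 in the tissues, and the 4 lung epithelium markers to 8999.9 to 20099 in TFCOs, 20315 and 15069.5 in thyroid tissue, and 965286 and 466752 in lung. In whole tissue, fewer cells of a type and less RNA per cell cannot be told apart.

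The summed HOX signal came mostly from cluster B in TFCOs, was shared between clusters B and A in thyroid tissue, and came mostly from cluster A in lung. Cluster B held 79.5% and 84.1% of the HOX counts at early passage and 88.5% and 80.8% at late passage in TFCOs of mThy14 and mThy16. It held 56.3% and 69.0% in thyroid tissue 1 and 2, and 34.4% and 37.4% in lung tissue 1 and 2. The 3 sample kinds did not overlap in this share. Cluster A had the opposite order, with 3.41% to 9.64% in TFCOs, 22.8% and 19.4% in thyroid tissue, and 63.5% and 62.0% in lung.
Cluster C reached 13.9% in thyroid tissue 1 and 1.81% to 6.71% in TFCOs and thyroid tissue 2. In lung it held 0.255% in 1 library and 0 of 2185 reads in the other, which allows a share of up to 0.137%. Cluster D held 4.90% to 7.32% in TFCOs and thyroid tissue and 1.78% and 0.641% in lung. No share had an exact binomial (Clopper-Pearson) 95% interval reaching further than 3.07 percentage points from it. Intervals and the limits on a count of 0 cover counting error only.

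**Figure D1:**
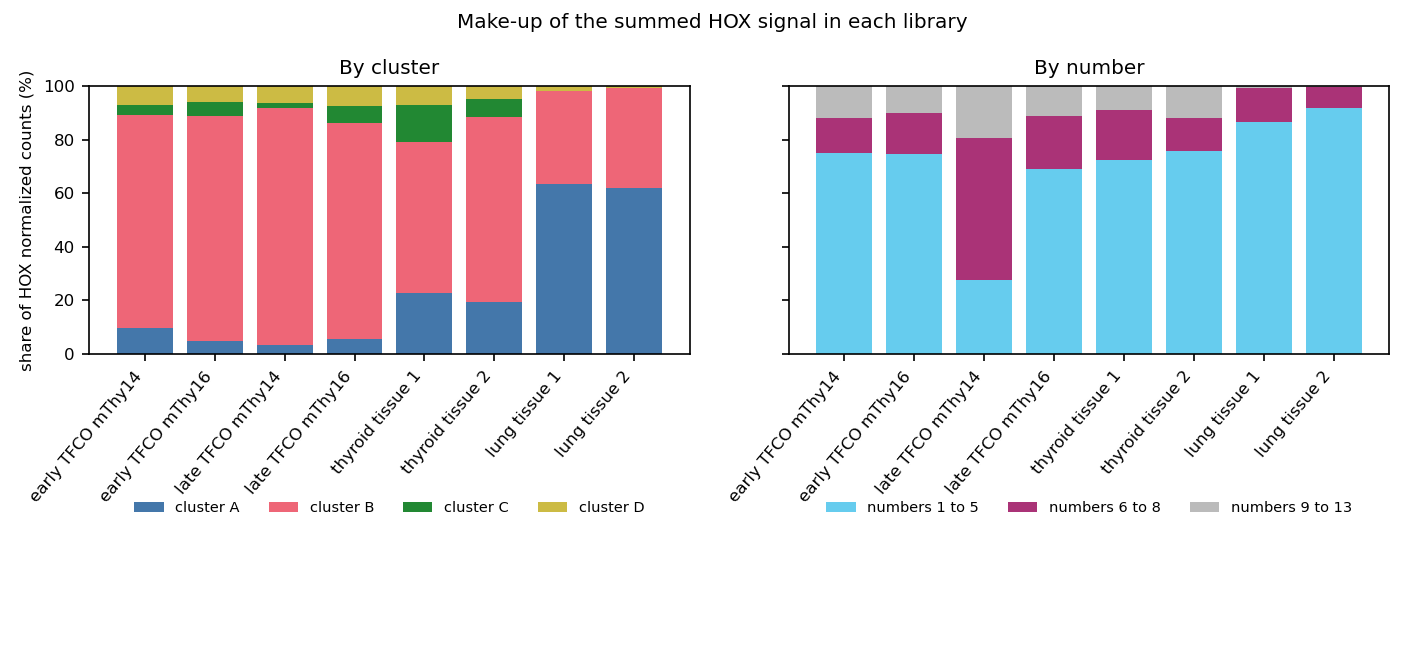
Share in percent of the summed normalized counts of the 38 HOX genes by cluster (left) and by gene number (right), with 1 stacked bar per library. Cluster A takes 3.41% to 9.64% in the TFCO libraries and 62.0% and 63.5% in lung, and late TFCO mThy14 is the one library in which numbers 6 to 8 exceed numbers 1 to 5.

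Read by number instead of cluster, 7 of the 8 libraries were led by the low-numbered genes. Numbers 1 to 5 held 75.0%, 74.5% and 69.1% in early mThy14, early mThy16 and late mThy16, 72.2% and 75.8% in thyroid tissue, and 86.4% and 91.9% in lung. Late mThy14 was the exception, with 27.8% on numbers 1 to 5 and 53.0% on numbers 6 to 8. The high-numbered genes (9 to 13) held 10.2% to 19.3% in TFCOs, 9.06% and 11.8% in thyroid tissue, and 0.827% and 0.366% in lung. In thyroid tissue 2 this share was carried by 1 gene, Hoxb9, with 103 of the 111 reads on the 16 genes of these numbers. Of those 16 genes, 8 to 11 reached 10 normalized counts in a TFCO library, 7 in thyroid tissue 1, 1 in thyroid tissue 2, and 1 and 0 in lung.

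The number of members at 10 or more normalized counts was 21 to 25 in the TFCO libraries and 25 in thyroid tissue 1. It was 14 in thyroid tissue 2, and 15 and 12 in lung. In lung tissue 1 these were 7 genes of cluster A, 6 of cluster B, 0 of cluster C and 2 of cluster D. In thyroid tissue 1 they were 6, 9, 5 and 5 genes, and in thyroid tissue 2 they were 4, 7, 2 and 1 genes.

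**Figure D2:**
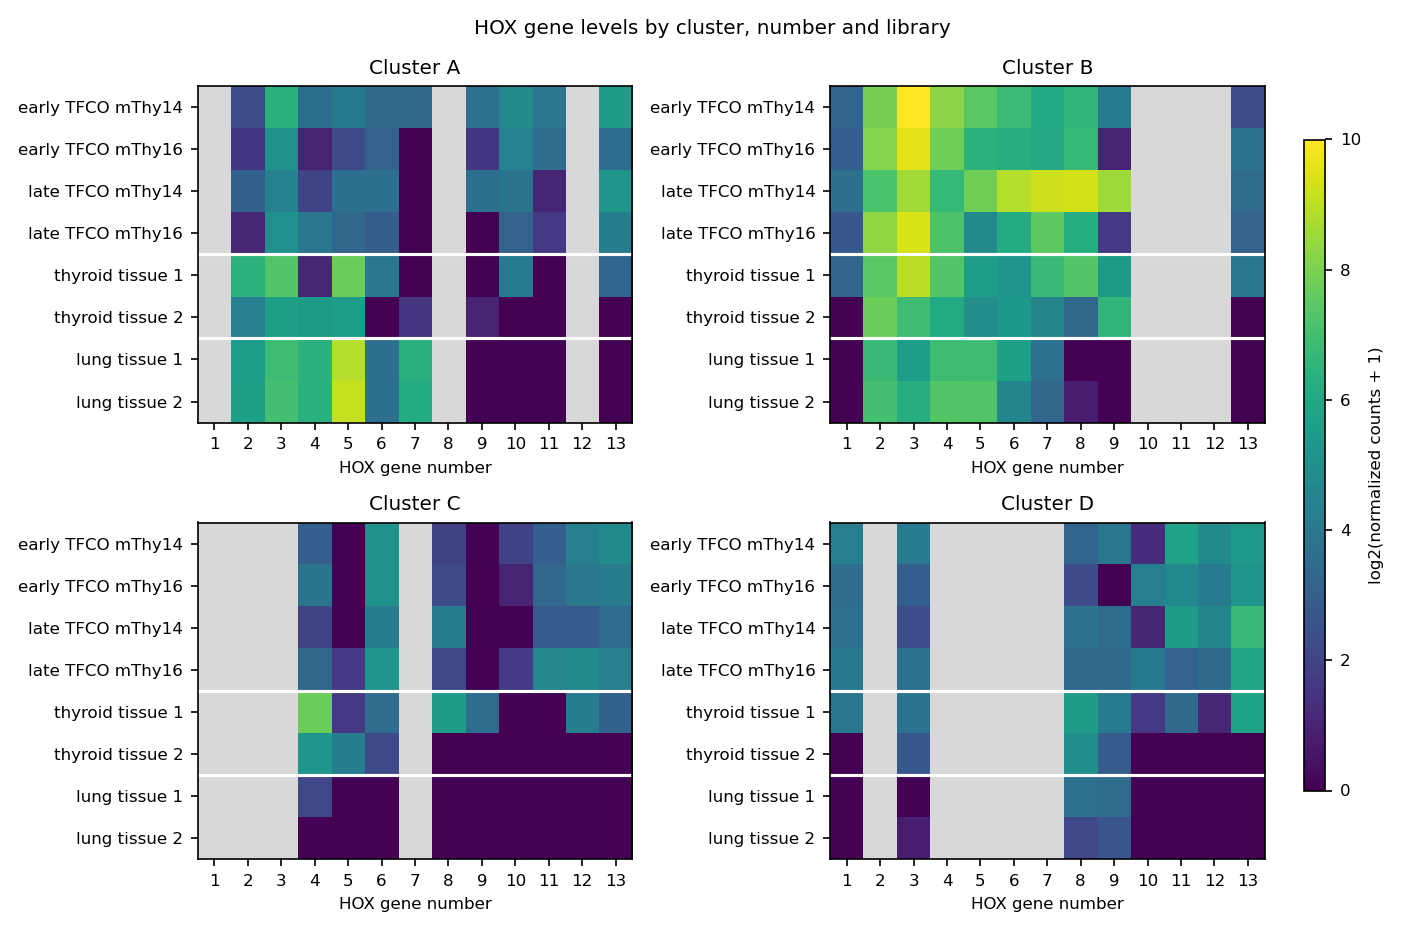
Level of each HOX gene as log2(normalized counts + 1), with a panel per cluster, a row per library and a column per gene number, and grey where no gene is shown. Cluster B is brightest in TFCOs, the low numbers of cluster A are brightest in lung, and most high-numbered genes are at 0 in thyroid tissue 2 and both lung libraries.

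Per kilobase of exon, the scale on which different genes can be compared if reads fell along the whole transcript, Hoxb3 had the highest mean in TFCOs, with 169.6 normalized counts per kilobase, and 195 without late mThy14. It led in 3 of the 4 libraries, with 239, 181 and 165 in early mThy14, early mThy16 and late mThy16. Late mThy14 was led by Hoxb7 with 395, and Hoxb3 had 92.8 there. The mean of 148 for Hoxb7 rests on that library and was 65.6 without it, below Hoxb4 with 87.3 and Hoxb2 with 81.0. Without late mThy14, the 7 members with the highest means were Hoxb2 to Hoxb8.
Outside cluster B, Hoxd13 led its cluster in all TFCO libraries, with 14.4 to 42.3. Hoxc12 led cluster C in 3 of them, with 14.4 to 24.9, and had 6.06 in late mThy14, below Hoxc6 with 7.35. Hoxa13 led cluster A in the mThy14 libraries, with 18.2 at early and 14.7 at late passage, while Hoxa6 led in early mThy16 with 9.06 and Hoxa4 in late mThy16 with 9.12.
The thyroid libraries had different leading genes. Thyroid tissue 1 was led by Hoxb3 with 118.3 and Hoxa5 with 110.8, and thyroid tissue 2 by Hoxb2 with 62.4 and Hoxb9 with 36.9. Hoxc4 led cluster C in both, with 83.5 and 14.4. Cluster D was led by Hoxd13 with 21.9 in thyroid tissue 1, where Hoxd8 had 15.9, and by Hoxd8 with 11.1 in thyroid tissue 2. Lung was led by Hoxa5 with 274, and Hoxb4 followed with 53.6. In lung the highest member of cluster D was Hoxd9 with 3.81, and that of cluster C was Hoxc4, with 1.30 in lung tissue 1 and 0 in lung tissue 2. If the libraries were 3′ end libraries, as the labels describe, this order would be better read without the division by length.

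Over the 38 members, the Pearson correlation of log2(normalized counts + 1) was 0.68 to 0.85 between TFCO libraries and 0.98 between the lung libraries. Thyroid tissue 1 and 2 correlated at 0.63. Thyroid tissue 2 correlated at 0.73 and 0.71 with lung, and at 0.29 to 0.47 with TFCOs, while thyroid tissue 1 correlated at 0.54 to 0.63 with TFCOs and at 0.46 and 0.45 with lung. The points are genes of the same clusters, and many share a value of 0 in the same set of libraries.

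TFCOs and lung tissue were compared to ask how HOX levels in the organoids differ from those in whole tissue of another foregut organ. Organ, culture and cell make-up differ together here and cannot be told apart. Fibroblast markers summed to 91.6 to 247 in TFCOs and to 22583 and 38732 in lung. Endothelial markers summed to 193 to 473 in TFCOs and to 19374 and 37842 in lung. Of the 33 members tested, 8 were higher and 2 were lower in TFCOs than in lung (limma on log2(normalized counts + 1), Benjamini-Hochberg adjusted p under 0.05 over all genes). The higher genes were Hoxb3, Hoxb7, Hoxb8, Hoxc6, Hoxa13, Hoxc13, Hoxd11 and Hoxd12, and the lower genes were Hoxa5 and Hoxa7. That is 30.3% of the members, against 23.4% of all genes tested. By direction, 9.83% of all genes were called higher and 13.5% were called lower. The median member differed by 2.65 on the log2 scale, or by 1.96 when members at 0 in both lung libraries were set to their lower bound, against 0.05 for all genes.
These counts and medians describe the members tested and depend on the filter. Of the 33, 16 had 10 or more normalized counts in fewer than 2 libraries outside the TFCOs, so they could not have entered the test without the TFCOs. They include 6 of the 8 called higher than lung, namely Hoxa13, Hoxb8, Hoxc6, Hoxc13, Hoxd11 and Hoxd12. For such members the filter itself favours a higher value in TFCOs, so these calls are no independent support. None of the rest of the 16 was called in any comparison. Hoxa7 entered only through lung. With no filter on low values all 38 members were tested and 12 were called, 10 higher and 2 lower, with all 10 genes named above among them.

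Hoxa5, a gene required for normal lung formation, had the lowest adjusted p of the members. It had 15.5 and 3.96 at early passage, 11.4 and 8.94 at late passage, 208 and 46.1 in thyroid tissue, and 472 and 556 in lung (order mThy14 then mThy16, and replicate 1 then 2, here and in what follows). The 3 sample kinds did not overlap, and lung was highest. Hoxa5 lies at chr6:52201754-52204587, and the TFCO to lung difference was -5.68 ± 0.89 on the log2 scale (SE, limma adjusted p = 0.0086). Hoxa7, a mid-cluster gene of the thoracic level, had 9.84 and 0 in early TFCOs, 0 in both late TFCOs, 0 and 1.84 in thyroid tissue, and 81.2 and 67.4 in lung. No library outside lung reached 10, and it differed by -5.37 ± 1.10 between TFCOs and lung (SE, limma adjusted p = 0.0197).

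The other low-numbered genes of cluster A lay in the same direction without passing the test. Hoxa2, which patterns the second pharyngeal arch, had 1.12 to 7.29 in TFCOs, 87.1 and 18.4 in thyroid tissue, and 47.7 and 49.2 in lung. No TFCO library reached either tissue, and the TFCO to lung difference was -3.61 ± 1.08 (SE, limma adjusted p = 0.0517). Hoxa3, required for the thymus, the parathyroids and the normal thyroid, had 84.3 and 34.7 at early passage, 19.8 and 31.3 at late passage, 159 and 50.7 in thyroid tissue, and 118 and 127 in lung. All TFCO libraries were below lung, and early mThy14 was above thyroid tissue 2. Hoxa4 was at 0.990 to 14.5 in TFCOs and at 82.1 and 81.6 in lung.

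In cluster B, TFCOs were higher than lung at Hoxb3, Hoxb7 and Hoxb8. Hoxb3, a paralog of Hoxa3 with a part in pharyngeal development, had 1018 and 771 at early passage, 394 and 699.8 at late passage, 503 and 117 in thyroid tissue, and 47.7 and 74.1 in lung. By its mean it was the most abundant member in TFCOs, and its lowest TFCO value lay above both lung values. The gene lies at chr11:96323326-96347930, and the difference was 3.50 ± 0.72 (SE, limma adjusted p = 0.0201). Hoxb7, a neighbour expressed at trunk level, had 61.8 and 64.4 at early passage, 609.9 and 178 at late passage, 105 and 22.1 in thyroid tissue, and 12.6 and 8.76 in lung. Late mThy14 was far above the other libraries. The difference from lung was 3.66 ± 0.97 (SE, limma adjusted p = 0.0389), and without late mThy14 or late mThy16 the adjusted p was 0.0743 or 0.0582 (limma).
Hoxb8, known from blood progenitors and from microglia, had 94.2 and 103 at early passage, 651 and 71.5 at late passage, 161 and 9.22 in thyroid tissue, and 0 and 0.674 in lung, the latter 1 read. TFCOs and lung did not overlap. The difference was 6.83 ± 1.43 (SE, limma adjusted p = 0.0206). Thyroid tissue 1 lay within the TFCO range, and thyroid tissue 2 lay between TFCOs and lung.

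Not all of cluster B differed. Hoxb4, which supports the renewal of blood stem cells, had 304 and 219.8 at early passage, 103 and 149 at late passage, 161 and 67.3 in thyroid tissue, and 117 and 158 in lung. Its values overlapped across all sample kinds. Hoxb5, which acts in lung branching and in the enteric nervous system, had 26.8 to 226 in TFCOs, 46.8 and 29.5 in thyroid tissue, and 117 and 156 in lung, so that lung lay inside the TFCO range. Hoxb2, a hindbrain gene, had 145 to 319.7 in TFCOs and 108 and 130.1 in lung, a gap of 1.00 ± 0.51 on the log2 scale that did not pass (SE, limma adjusted p = 0.166).

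In clusters C and D, TFCOs held low levels of genes that the lung libraries listed at 0. Hoxc6, a thoracic-level gene, had 33.7 and 34.7 at early passage, 17.7 and 35.8 at late passage, 10.9 and 3.69 in thyroid tissue, and 0 in both lung libraries. All TFCO libraries were above both thyroid libraries. The TFCO mean was at least 13.4-fold above lung, taking a floor of 3 reads per lung library (limma adjusted p = 0.0185). Hoxd12, a limb and digit gene, had 25.3, 16.8, 22.9 and 10.1 in TFCOs, 1.09 and 0 in thyroid tissue, and 0 in lung, a bound of at least 8.28-fold against lung (limma adjusted p = 0.0288). All TFCO libraries were above every tissue library for both genes. Outside the TFCOs, Hoxd12 reached 10 in no library and Hoxc6 in 1, so both passed the filter through the TFCOs.
The remaining 3 called genes were Hoxd11, a gene of forearm and kidney formation, Hoxa13, a gene of the digits and hindgut, and Hoxc13, a gene of hair and nail. All 3 were at 0 in thyroid tissue 2 and in both lung libraries. Hoxd11 had 53.4 and 24.8 at early passage, 43.7 and 7.83 at late passage, and 9.80 in thyroid tissue 1. Hoxa13 had 45.0 and 10.9 at early passage, 36.4 and 17.9 at late passage, and 8.71 in thyroid tissue 1. Hoxc13 had 26.7 and 17.8 at early passage, 10.4 and 19.0 at late passage, and 7.62 in thyroid tissue 1. TFCO means were at least 14.3-fold, 12.1-fold and 8.15-fold above lung for Hoxd11, Hoxa13 and Hoxc13, with limma adjusted p = 0.0468, 0.0459 and 0.0490. In thyroid tissue 1 Hoxd11 lay within the TFCO range, while Hoxa13 and Hoxc13 lay below it. All 3 reached 10 in TFCO libraries alone and passed the filter through them.

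Hoxd13, which shapes the digits, was the most abundant member of cluster D in TFCOs. It had 40.8 and 35.7 at early passage, 105 and 57.0 at late passage, 54.4 and 0 in thyroid tissue, and 0 in lung. Its bound of at least 26.3-fold against lung came with a limma adjusted p of 0.0549. Thyroid tissue 1 lay inside the TFCO range and thyroid tissue 2 was at 0, so the thyroid libraries lay at both ends. Hoxd1 had 10.9 to 18.3 in TFCOs, 14.2 and 0 in thyroid tissue, and 0 in lung, the same arrangement at a low level.

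Without overlap, 20 of the 33 members were higher in all TFCO libraries than in both lung libraries, where 34.4% of all genes were, and 7 were lower, where 33.3% of all genes were. Of the 16 members that passed the filter only through the TFCOs, all but Hoxa9 are among the 20. The filter favours this direction for them, so their share is no independent support. The count of 10 called members depended on single libraries, as did the calls over all genes. Both fell without either lung library, where Hoxa7 no longer passed the filter and was not tested. Both rose without either thyroid library, in fits that share 1 estimate of the spread. Such fits leave 1 library in a group, so their counts are not read as a result about the members. By gene, Hoxa5, Hoxb3, Hoxb8, Hoxc6 and Hoxd12 were called without any 1 TFCO library. Hoxa7 missed the threshold without late mThy14 (limma adjusted p = 0.0547). Hoxd11 missed it without early mThy14, early mThy16 or late mThy14 (limma adjusted p = 0.0539, 0.0689 and 0.0503). Hoxa13 missed it without early mThy14 or late mThy16 (limma adjusted p = 0.0537 and 0.0558), and Hoxc13 without early mThy14, early mThy16 or late mThy16 (limma adjusted p = 0.0700, 0.0530 and 0.0535).
In the voom fit of the recovered reads, 5 of the 10 were called, namely Hoxa5, Hoxa7, Hoxb3, Hoxc6 and Hoxd12. The other 5 lay just past the threshold, with Hoxb8 at a limma adjusted p of 0.0679, Hoxb7 and Hoxa13 at 0.0530, Hoxc13 at 0.0515 and Hoxd11 at 0.0508.

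**Figure D3:**
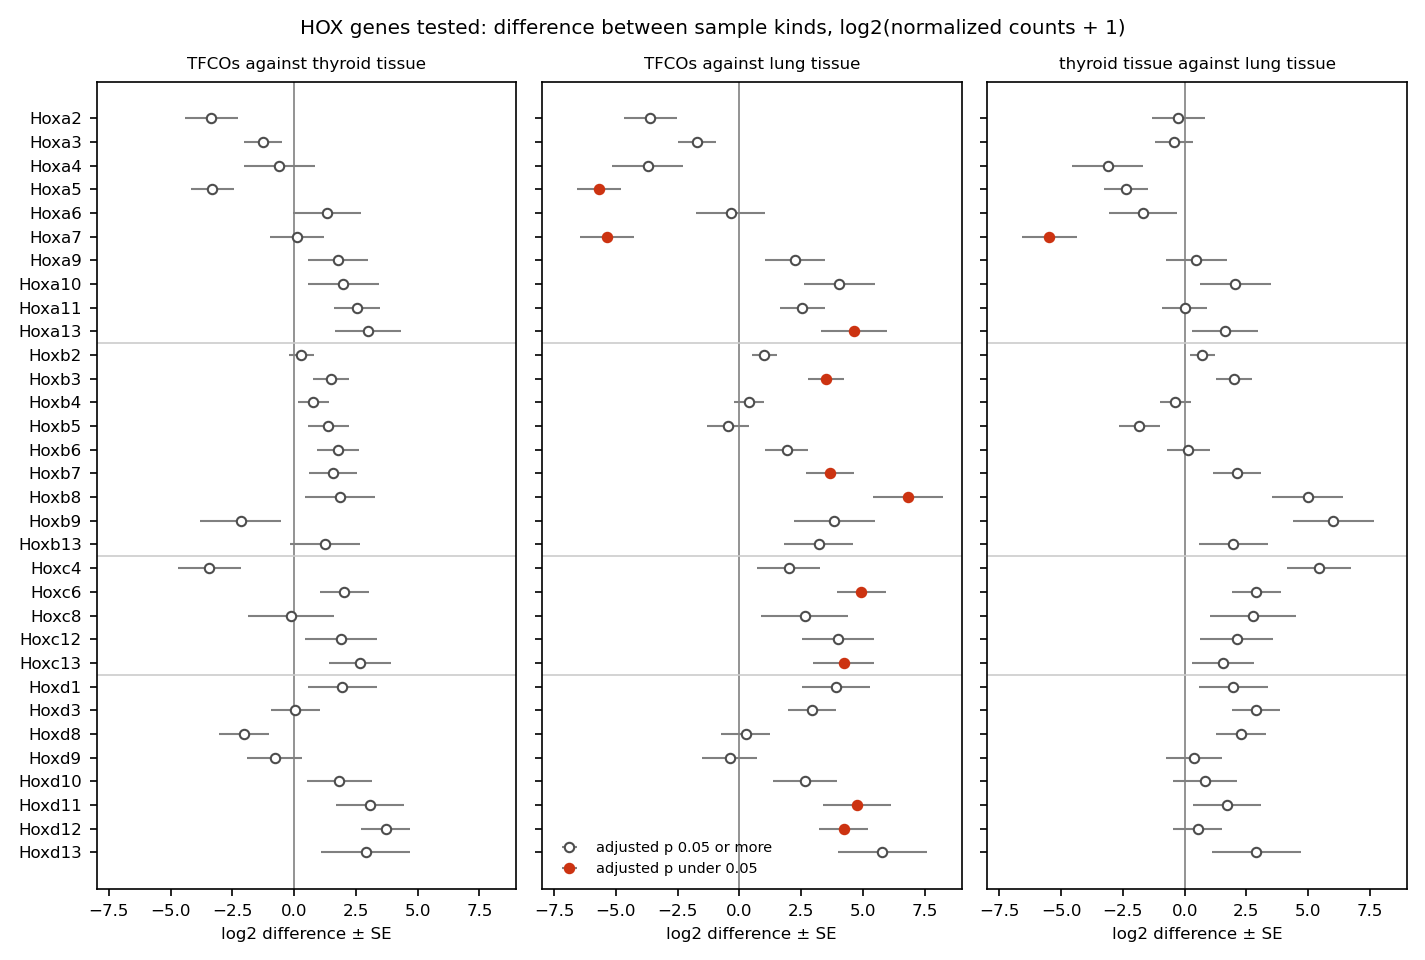
Log2 difference of log2(normalized counts + 1) with its standard error for HOX genes tested, in order of cluster and number, for TFCOs against thyroid tissue, TFCOs against lung and thyroid tissue against lung. Filled points have a limma adjusted p under 0.05, which holds for 0, 10 and 1 members, and in the middle panel low-numbered cluster A genes lie left of 0 while Hoxa13 and most genes of clusters B, C and D lie right of it.

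TFCOs and thyroid tissue were compared to ask how far the organoids keep the code of the tissue they came from. No member passed the test in the limma fit, where 3.65% of all genes did, 0.599% higher and 3.05% lower in TFCOs. At an unadjusted p under 0.05 there were 5 members of 33, against 18.6% of all genes, and the voom fit also called 0 members. This comparison and that with lung share the TFCO libraries. All 4 TFCO libraries were above both thyroid libraries for 6 members (17.2% of all genes) and below both for 4 members (17.3% of all genes).
The lower members were Hoxa2, Hoxa5, Hoxc4 and Hoxd8. Hoxc4, the last gene of its cluster toward the head end, had 7.03 and 13.9 at early passage, 3.12 and 8.94 at late passage, 214 and 36.9 in thyroid tissue, and 3.35 and 0 in lung. Both thyroid libraries stood above all others, and Hoxc4 passed the filter through them. TFCOs differed from thyroid tissue by -3.43 ± 1.28 (SE, limma adjusted p = 0.216). Hoxd8, active in trunk and kidney, had 3.96 to 12.5 in TFCOs, 43.5 and 30.4 in thyroid tissue, and 12.6 and 3.37 in lung, with thyroid tissue highest again. Hoxa5 differed by -3.31 ± 0.89 and Hoxa2 by -3.35 ± 1.08 between TFCOs and thyroid tissue (SE, limma adjusted p = 0.103 and 0.164).
The marker sums of fibroblasts and vessels were also higher in the tissues than in TFCOs, with endothelial markers at 193 to 473 in TFCOs and 2928 to 37842 in tissue. Skeletal muscle markers were at 1875 to 2514 in TFCOs and at 40389 and 129010 in thyroid tissue. The 4 smooth muscle markers did not separate in this way. They summed to 1476 to 2491 in TFCOs, 3756 and 1510 in thyroid tissue, and 2747 and 7938 in lung, with thyroid tissue 2 inside the TFCO range. The 3 markers of C cells and parathyroid summed to 0 to 17.9 in TFCOs, with Pth at 0 in all 4 libraries, to 28509 and 61976 in thyroid tissue, and to 20.9 and 21.6 in lung. Hoxc4 and Hoxd8 were likewise highest in thyroid tissue. The 3 adipocyte markers summed to 10.4 to 43.6 in TFCOs, 1662 and 2572 in thyroid tissue, and 1158 and 202 in lung. Their part in the differences of these members was not tested.

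The members higher in TFCOs than in both thyroid libraries were Hoxa11, Hoxa13, Hoxb6, Hoxc6, Hoxc13 and Hoxd12. All but Hoxb6 passed the filter only through the TFCOs. The filter favours a higher value in TFCOs for them, so they are no independent support. Hoxb6, a trunk gene, had 111 and 78.2 at early passage, 475 and 70.4 at late passage, 35.9 and 39.6 in thyroid tissue, and 50.3 and 22.9 in lung. It is the one abundant gene of the 6, and late mThy14 was several times above the rest. The difference from thyroid tissue was 1.77 ± 0.86 (SE, limma adjusted p = 0.322). Hoxa11, a limb and uterus gene, had 14.1 and 10.9 at early passage, 1.04 and 2.24 at late passage, and 0 in all tissue libraries.

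The thyroid libraries themselves disagreed, and the comparison turned on which of them was used. Against thyroid tissue 1, which was grouped with the TFCOs above, the difference of the median member was -0.00 on the log2 scale, with 16 members above and 17 below. Against thyroid tissue 2 the median was 2.53, with 23 above and 10 below, while the medians of all genes were 0.02 and 0.05. Against thyroid tissue 1 alone, all TFCO libraries were higher for 6 members (25.8% of all genes) and lower for 9 (25.9% of all genes). The 9 were Hoxa2, Hoxa3, Hoxa5, Hoxa6, Hoxb13, Hoxc4, Hoxc8, Hoxd8 and Hoxd9. Leaving out 1 thyroid library moved the number of calls over all genes. Counts of members called in such fits are therefore not read as a result about the members.

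Of the 38 members, 16 were at 0 in thyroid tissue 2 and in both lung libraries, a share of 42.1% where 6.37% of all genes showed this, and 13 of the 16 had numbers from 9 to 13. Besides these 13 they were Hoxb1, Hoxc8 and Hoxd1. Of the 16, 12 were above 0 in all libraries of the first set, which was 31.6% of the members and 2.87% of all genes. No member showed the reverse. Their levels were low: the median over the TFCO libraries was 11.2 normalized counts, and the highest was 105, for Hoxd13 in late mThy14. In thyroid tissue 1, 13 of the 16 were above 0 and 7 were at 10 or more. A listed 0 allows up to 3 reads, or 2.77 normalized counts in thyroid tissue 2 and 2.51 and 2.02 in lung, and many of the TFCO values lie only a few times above these limits. The cause of the shared zeros was not tested.

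Thyroid and lung tissue were compared to ask which members separate the 2 organs. Hoxa7, with values given above, was the 1 member called, lower in thyroid tissue by 5.48 ± 1.10 on the log2 scale (SE, limma adjusted p = 0.0354), where 6.05% of all genes were called, 2.89% higher and 3.16% lower in thyroid tissue. It reached 10 in the lung libraries alone and passed the filter through them, and it was not called in the voom fit (limma adjusted p = 0.0770). The thyroid libraries did not overlap lung for 9 higher members (26.2% of all genes) and 5 lower members (27.5% of all genes). Among the lower members were Hoxa4, Hoxa5, Hoxa7 and Hoxb5.
Among the higher members were Hoxc4, Hoxb9 and Hoxb8, which missed the threshold. Hoxb9, known from the thoracic skeleton, had 42.5 and 95.0 in thyroid tissue, 0 in lung, 16.9 and 0.990 at early passage, and 374 and 2.24 at late passage. It was present in thyroid tissue and in mThy14, and near the floor in mThy16 at both passages. The thyroid to lung difference was 6.01 ± 1.63 for Hoxb9, 5.44 ± 1.28 for Hoxc4 and 4.98 ± 1.43 for Hoxb8 (SE, limma adjusted p = 0.0802, 0.0556 and 0.0911).
Within the second set, thyroid tissue 2 less lung gave a median member of 0.00, with 11 above and 10 below. The rest of the members tested were at 0 in all libraries of this set, so that median falls on ties and does not measure likeness. Thyroid tissue 1 less lung gave 2.53, with 26 above and 5 below. Like every member without overlap, Hoxa4, Hoxa5, Hoxa7, Hoxb5, Hoxb8, Hoxb9 and Hoxc4 kept their direction with either thyroid library. For Hoxa7 the difference was -4.72 with thyroid tissue 2 and -6.23 with thyroid tissue 1. Fits without 1 of the tissue libraries leave 1 library in a group, so their calls are not read as a result about the members. Without late mThy14 the 1 member called was Hoxb9 in place of Hoxa7 (limma adjusted p of Hoxa7 = 0.0711). Without either lung library Hoxa7 was not tested.

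Late and early TFCOs were compared to ask whether the code held through passaging. No member was called, and none of the 14703 genes was (limma, adjusted p under 0.05, 0% of all genes). At an unadjusted p under 0.05 there were 2 members, Hoxa11 and Hoxb7, against 1.13% of all genes, and the voom fit also called 0. Hoxa11 reached 10 in the early TFCO libraries alone and passed the filter through them. Both late libraries were above both early libraries for 3 members (11% of all genes) and below for 5 (12.4% of all genes). The median member changed by -0.24 on the log2 scale, against -0.02 for all genes.

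The lines took different courses in cluster B. In mThy14, most of the signal lay on the low numbers at early and on the middle numbers at late passage. The genes Hoxb6 to Hoxb9 summed to 284 normalized counts at early and 2109 at late passage, while Hoxb1 to Hoxb5 summed to 1753 and 879.5. In mThy16 the same sums were 247 and 322, and 1366 and 1201. The ratio of the middle to the low group was 0.162 and 2.40 in mThy14, 0.181 and 0.268 in mThy16, 0.385 in both thyroid libraries, and 0.161 and 0.0624 in lung. Late mThy14 was the one library with a ratio above 1. This grouping was not planned, and it counts Hoxb9 with the middle numbers, where the classes used above put it with 9 to 13. It was applied to the same single libraries that it describes. With those classes, late mThy14 held 27.8% of all HOX counts on numbers 1 to 5 and 53.0% on numbers 6 to 8.
By gene, the late over early ratio in mThy14 was 22.2-fold for Hoxb9 (12 and 359 reads), 9.86-fold for Hoxb7 (44 and 586 reads), 6.91-fold for Hoxb8 (67 and 625 reads) and 4.27-fold for Hoxb6 (79 and 456 reads). On the other side of the cluster, Hoxb3 and Hoxb4 had late over early ratios of 0.388 and 0.339. These are ratios of single libraries with no replicate check.
In mThy16 the ratio was 2.76-fold for Hoxb7 (65 and 159 reads), and the ratios of Hoxb8 and Hoxb6 were 0.695 and 0.900. Hoxb9 had 1 and 2 reads there. Hoxb7 was the one gene of the 4 with a ratio well above 1 in both lines, and Hoxb5 went from 88.1 to 26.8 in mThy16.
The difference between the lines was tested in limma with each TFCO library as a group of its own, the spread being taken from the tissue libraries. This test was added after the data were seen. No member and no gene was called (0% of all genes). On the log2 scale the difference of the changes was 3.69 ± 1.84 for Hoxb9 and 1.83 ± 1.97 for Hoxb7 (SE, limma adjusted p = 1 for both). A late value at least 4-fold higher within a line, on log2(normalized counts + 1), was met by 5 members in mThy14, or 15.2% where 2.24% of all genes met it, and by 3 in mThy16, or 9.09% where 2.78% of all genes met it. Lower by as much were 4 members in mThy14, or 12.1% where 6.73% of all genes were, and 0 in mThy16, where 2.12% were.

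**Figure D4:**
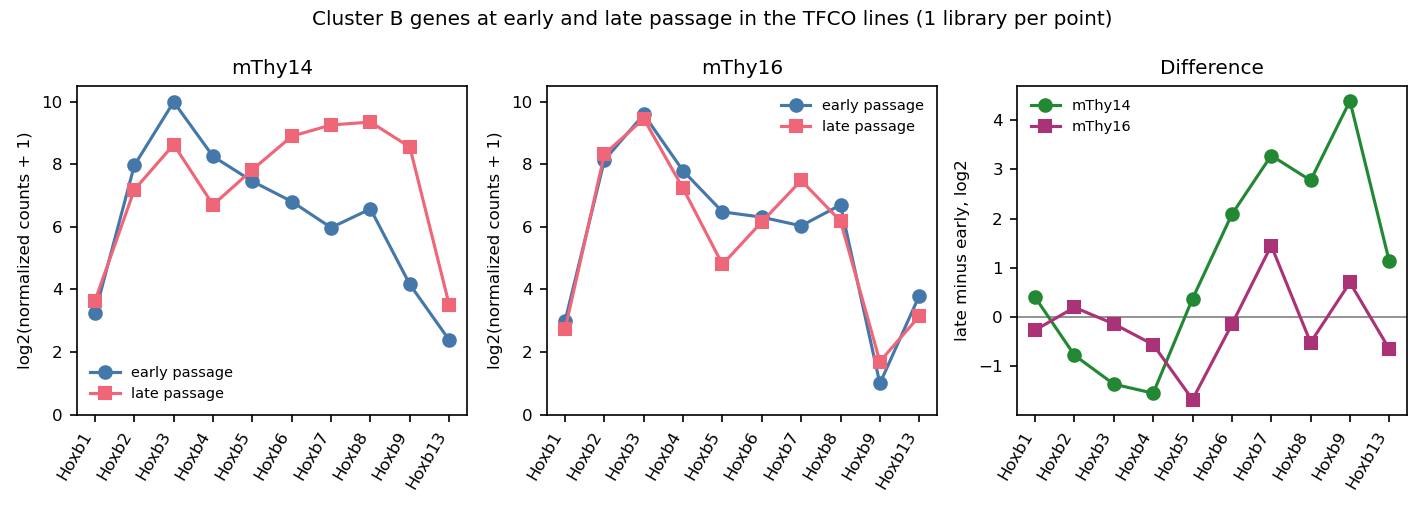
Cluster B genes in order of number at early and late passage in mThy14 and mThy16 as log2(normalized counts + 1), and the late minus early difference of each line, with 1 library per point. In mThy14, Hoxb6 to Hoxb9 lie 2.09 to 4.39 log2 units higher at late passage and Hoxb2 to Hoxb4 lie lower, while in mThy16 the same 7 genes lie between -0.56 and 1.45.

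Outside the clusters, 8 TALE cofactors that bind with HOX proteins were listed, and 1 of 8 (12.5%) passed the test in TFCOs against lung, where 23.4% of all genes did. Meis1 had 30.9 and 38.6 at early passage, 19.8 and 39.1 at late passage, 363 and 126.3 in thyroid tissue, and 437 and 692 in lung. All TFCO libraries were below every tissue library. The TFCO to lung difference of Meis1 was -4.10 ± 0.67 (SE, limma adjusted p = 0.0103), and the list's median was -0.46. Pbx2, Pbx3, Pbx4, Meis2, Meis3, Pknox1 and Pknox2 were not called in any comparison.
Of 21 chromatin regulators of the clusters, 4 were higher in TFCOs than in lung and 0 were lower, with a median difference of 1.05. That is 19.0% of the list, where 23.4% of all genes were called in either direction and 9.83% were called higher. They were the Polycomb repressive complex 2 subunits Ezh2, Eed and Suz12 and the H3K27 demethylase Kdm6a. Ezh2 had 894, 1343, 718 and 1518 in TFCOs (early mThy14, early mThy16, late mThy14, late mThy16), 643 and 271 in thyroid tissue, and 159 and 193 in lung. TFCOs were above all tissue libraries, and the difference from lung was 2.60 ± 0.53 (SE, limma adjusted p = 0.0193). Suz12 and Eed differed by 1.42 ± 0.35 and 1.55 ± 0.43 (SE, limma adjusted p = 0.0329 and 0.0436), and Kdm6a by 2.31 ± 0.59 (SE, limma adjusted p = 0.0354).
Of the genes that flank the clusters, 10 were tested and 1 passed, again in TFCOs against lung and below the share of all genes. Mtx2, next to cluster D, was higher by 1.54 ± 0.44 (SE, limma adjusted p = 0.0469). Of the ParaHox genes, relatives of HOX that act in the gut and pancreas, 4 of 6 were tested and 0 were called. Pdx1 had 67.1 to 168 in TFCOs, 354 and 0 in thyroid tissue, and 0 in lung, the same arrangement as the high-numbered HOX genes. Of the other genes within the clusters, Hotairm1, an antisense transcript within cluster A, was the 1 tested. It had 0 to 5.20 in TFCOs, 0 and 28.6 in thyroid tissue, and 62.8 and 66.1 in lung, with a TFCO to lung difference of -5.13 ± 1.60 (SE, limma adjusted p = 0.0559).
No gene of these lists was called by limma in the other 3 comparisons.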

How the data were processed

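RNA of 8 mouse libraries was sequenced: 2 early and 2 late TFCO libraries, 2 of thyroid and 2 of lung tissue. The authors deposited 1 table of normalized counts per gene (a signal scaled per library), made with DESeq2 per the published methods. The submitters' processing notes name BWA 0.6.2-r126 and the builds hg38 and mm10 with no role. The labels describe a CEL-Seq protocol and the methods a stranded poly(A) kit. All values above 0 were whole multiples of 1 step per library (tolerance 0.01 reads), which gave the reads printed here. Symbols were matched to GENCODE M21, where 15883 of 16119 were found and 236 were not.

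Values were tested as log2(normalized counts + 1), with pseudocount 1, in limma 3.58.1 (R 4.3.3, mean-variance trend), with Benjamini-Hochberg adjustment over 14703 genes with 10 or more in at least 2 libraries. Late and early TFCOs were compared in a fit of all 8 libraries. The other comparisons used 6 units, with each TFCO line averaged over its passages. The test was checked on simulated data. An exact permutation of 2 against 2 cannot go below p = 0.333. The lines are the same cultures at early and late passage, and their deviations correlated at 0.48. Thyroid and lung numbers do not pair (-0.07).

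The members and lists were chosen with earlier results of these data known. Genes were named if called in a comparison, if highest per kilobase in their cluster and sample kind, or if at 10 or more in all libraries of one kind and under 10 in all of another. Hoxa3, Hoxa4, Hoxa11, Hoxb2, Hoxb5 and Hoxb6 were named after their values were seen, for their place in a group described, as were members listed only for not overlapping. Markers of follicular cells, fibroblasts, vessels, muscle, leukocytes and lung epithelium served to check the labels. The edgeR and DESeq2 count models were not run. The step of early mThy16 (0.990) is so near 1 that whole reads there could not be told apart from rounding. The reads printed for that library, and its part in the voom fit, take this step as given. Python 3.11.15, pandas 2.3.3 and matplotlib 3.10.9 were used. A few genes of the lists are not reported here.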

Additional observations from a re-analysis of the deposited data

Results flagged for a closer look

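For 4 members with 50 or more normalized counts in a TFCO library, the change from early to late passage had opposite signs in the 2 lines. The change in mThy14 less that in mThy16, on the log2 scale, was 3.29 for Hoxb8, 2.24 for Hoxb6, 2.05 for Hoxb5 and -0.97 for Hoxb2. The test of this difference in limma gave unadjusted p = 0.330, 0.185, 0.169 and 0.316, and an adjusted p of 1 for each. Each value rests on 1 library per line and passage, with the spread taken from the tissue libraries.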

How the results depend on the processing

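The TFCO libraries hold few reads on most members, and 2 libraries per group limit what can be called. In late against early TFCOs, 0 members were called under every alternative run, including the replicate block by line (0) and each library left out. In TFCOs against thyroid tissue the count of 0 became 2 with the 4 TFCO libraries as separate samples and 2 without the mean-variance trend, and 0 to 15 when a library was left out, with 15 without thyroid tissue 1. In TFCOs against lung the count of 10 became 6 with 10 or more in at least 4 libraries, 18 with separate TFCO libraries, 5 with voom on the recovered reads and 22 with only the groups compared. It was 7 to 8 when a TFCO library was left out. It fell without a lung library and rose without a thyroid library, as did the calls over all genes. In thyroid tissue against lung the count of 1 became 0 with quantile normalization, pseudocount 0.5, the stricter filter, voom, only the groups compared and the tissue number as a replicate block (0), 2 with pseudocount 5, no trend or separate TFCO libraries, and 0 to 17 when a library was left out. Blocks were not run between TFCOs and tissue, whose numbers are not shared. Per kilobase, the mean share of numbers 1 to 5 went from 61.6% to 50.8% in TFCOs, from 74.0% to 67.9% in thyroid tissue and from 89.1% to 88.1% in lung, and the TFCO mean was 49.8% to 73.4% with 1 library left out, the highest without late mThy14. The cause of these moves was not tested, beyond fewer genes tested or samples fitted. The 11 called differences kept their direction in all 193 alternatives and their side of the threshold in 145 of them. Among these, Hoxb7 against lung missed it without late mThy14, and without either lung library 9 of the 10 were tested and 0 were called. The planned edgeR and DESeq2 alternatives were not run.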
